A study of Mus musculus with 4 samples.

Results

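Interleukins are secreted proteins by which cells of the immune system and of tissues signal to one another, and interleukin receptors are the membrane chains that receive them. The genes described here are the 76 mouse genes whose symbol in the array's annotation starts with Il and a digit, each read by 1 of the 22206 probes of the table. By role they comprised 37 receptor chains, 36 ligands and 3 genes for antagonists or a binding protein, with soluble and decoy receptors counted among the receptor chains. No measured value entered the choice of probe for a gene, since no symbol had more than 1 probe. Other genes of the interleukin system were not analysed here, except for 3 lists of signalling partners.

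Most interleukin receptors have a ligand-binding chain and a shared signalling chain. Type I cytokine receptors, such as those for IL-6, IL-4 and IL-15, signal through JAK kinases and STAT transcription factors. Receptors of the IL-1 and IL-17 families instead act through adaptor proteins towards NF-kB. In the infarcted heart, IL-1 and IL-6 are known from the early inflammation that clears dead muscle, and IL-11, IL-13, IL-17 and IL-33 have been studied in fibroblasts and scar.

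The hearts came from 4 male mice whose left coronary artery was tied off at 8 weeks of age, which causes a myocardial infarction (MI), and which were killed 3 months later. TTg-MI mice (2 hearts) had the genotype Tcf21iCre/Tomato/MGTH2A, and Ctrl-MI mice (2 hearts) had Tcf21iCre/Tomato, so that both groups carried the Cre and the Tomato reporter. Tcf21 is a transcription factor gene of cardiac fibroblasts, and MGTH2A is known as a single construct for the factors Mef2c, Gata4, Tbx5 and Hand2, used to turn fibroblasts into cells resembling heart muscle. The sources used here name no agent that induces the Cre. RNA was taken from heart tissue and not from sorted cells, so each value sums muscle, fibroblasts, vessels and immune cells, and fewer cells of a type cannot be told apart from less RNA per cell. Mice whose ejection fraction, the share of blood pumped out per beat, stayed high 2 days after surgery had been removed, per the labels.

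All values are log2 expression values as deposited, and 1 unit is a 2-fold change. Array medians ran from 6.55 to 6.62. Heart muscle markers were high on every array, with Actc1 between 19.81 and 19.88. Of the 4 factor genes, Tbx5 was at 10.68 and 9.72 in TTg-MI against 7.62 and 7.88 in Ctrl-MI, and Mef2c was also higher in TTg-MI without overlap, whereas Gata4 and Hand2 overlapped between the groups. Ctrl-MI replicate 1 stood apart from the other arrays, with a score of -47.1 on the first principal component, where the others ran from -1.29 to 31.9. Ctrl-MI replicate 2 was low in the atrial muscle genes Myl4, Sln and Myl7, with Myl4 at 7.70 against 15.99 on Ctrl-MI replicate 1. Nppa and Bmp10, also atrial genes, are not read for a difference between the Ctrl-MI arrays. Nppa was near the highest value of both arrays, and Bmp10, at 5.31 and 5.39, was below the lower quartile of both. Bmp10 was at 12.38 and 11.82 in TTg-MI and differed between the groups (limma with Benjamini-Hochberg, adjusted p = 0.0049). Because the single Ctrl-MI arrays stood apart in the ways described, values without single arrays are given below for the members described most closely.

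Many interleukin genes gave little signal in these hearts. An array's lower quartile, between 5.41 and 5.48, was taken as the level under which a gene is not shown to be above background. Of the 76 members, 29 (38.2%) lay under it on all 4 arrays, against 19.8% of all probes. These were 10 of the 37 receptor chains, 17 of the 36 ligands and 2 of the 3 others. A further 14 members were under it on 1 to 3 arrays, and 33 were above it on every array. In all, 42 members were above it on both arrays of at least 1 group, namely 23 receptor chains, 18 ligands and the binding protein gene Il18bp.

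**Figure D1:**
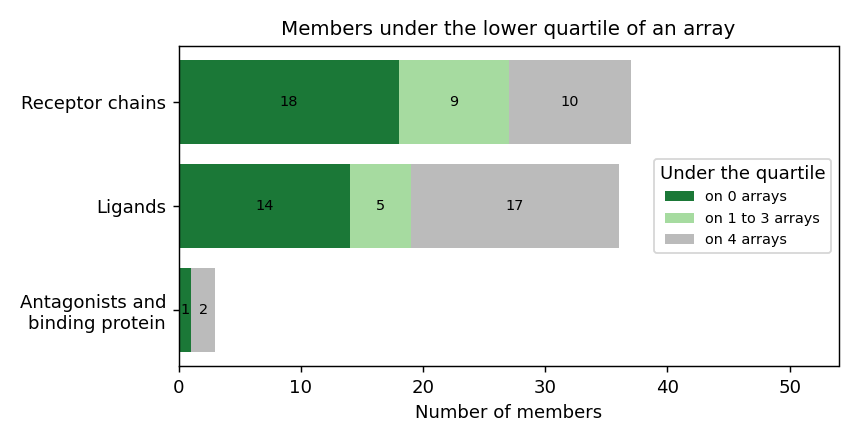
Number of members (x axis) in each role class (y axis) that lay under the array's lower quartile on 0, 1 to 3 or 4 arrays (colours). The grey segments hold 10 receptor chains, 17 ligands and 2 antagonists.

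No member passed the comparison of TTg-MI with Ctrl-MI after adjustment. Limma with Benjamini-Hochberg adjustment over all 22206 probes called 0 of the 76 at 0.05, where it called 1 probe of the whole table (0.0045%), and the smallest adjusted p of a member was 0.530, for Il6ra. At an unadjusted p under 0.05, 7 members (9.21%) were lower in TTg-MI, against 5.07% of all probes, and 0 were higher, against 3.18% of all probes. The 7 were 6 receptor chains (Il6ra, Il17rc, Il6st, Il13ra1, Il1r1 and Il4ra) and the antagonist gene Il1rn, which lay under the lower quartile on all 4 arrays. No ligand was among them. An ordinary linear model without limma's shared variance called 0 members after adjustment and gave 3 lower and 2 higher at an unadjusted p under 0.05, against 2.78% and 2.81% of all probes. The 3 lower were Il6ra, Il6st and Il23a and the 2 higher Il2 and Il21, of which Il23a, Il2 and Il21 lay under the lower quartile on all 4 arrays.

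The groups did not overlap, with TTg-MI the lower, for 22 members (28.9%), against 18.7% of all probes. With TTg-MI the higher, this held for 10 members (13.2%), against 19.4% of all probes. Among receptor chains the 2 counts were 11 and 4 of 37, and among ligands 9 and 6 of 36. Of members above the lower quartile on both arrays of a group, they were 9 and 3 of 23 receptor chains. For such ligands they were 2 and 2 of 18, so most ligand counts came from dim genes. The median log2 difference was -0.05 for receptor chains and -0.05 for ligands, against 0.01 over all probes. Above the lower quartile in a group, it was -0.11 for receptor chains and -0.09 for ligands, against 0.004 over such probes. Whether receptors differed from ligands was not tested. With 2 arrays per group a single gene's exact permutation test cannot give a p below 0.333.

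**Figure D2:**
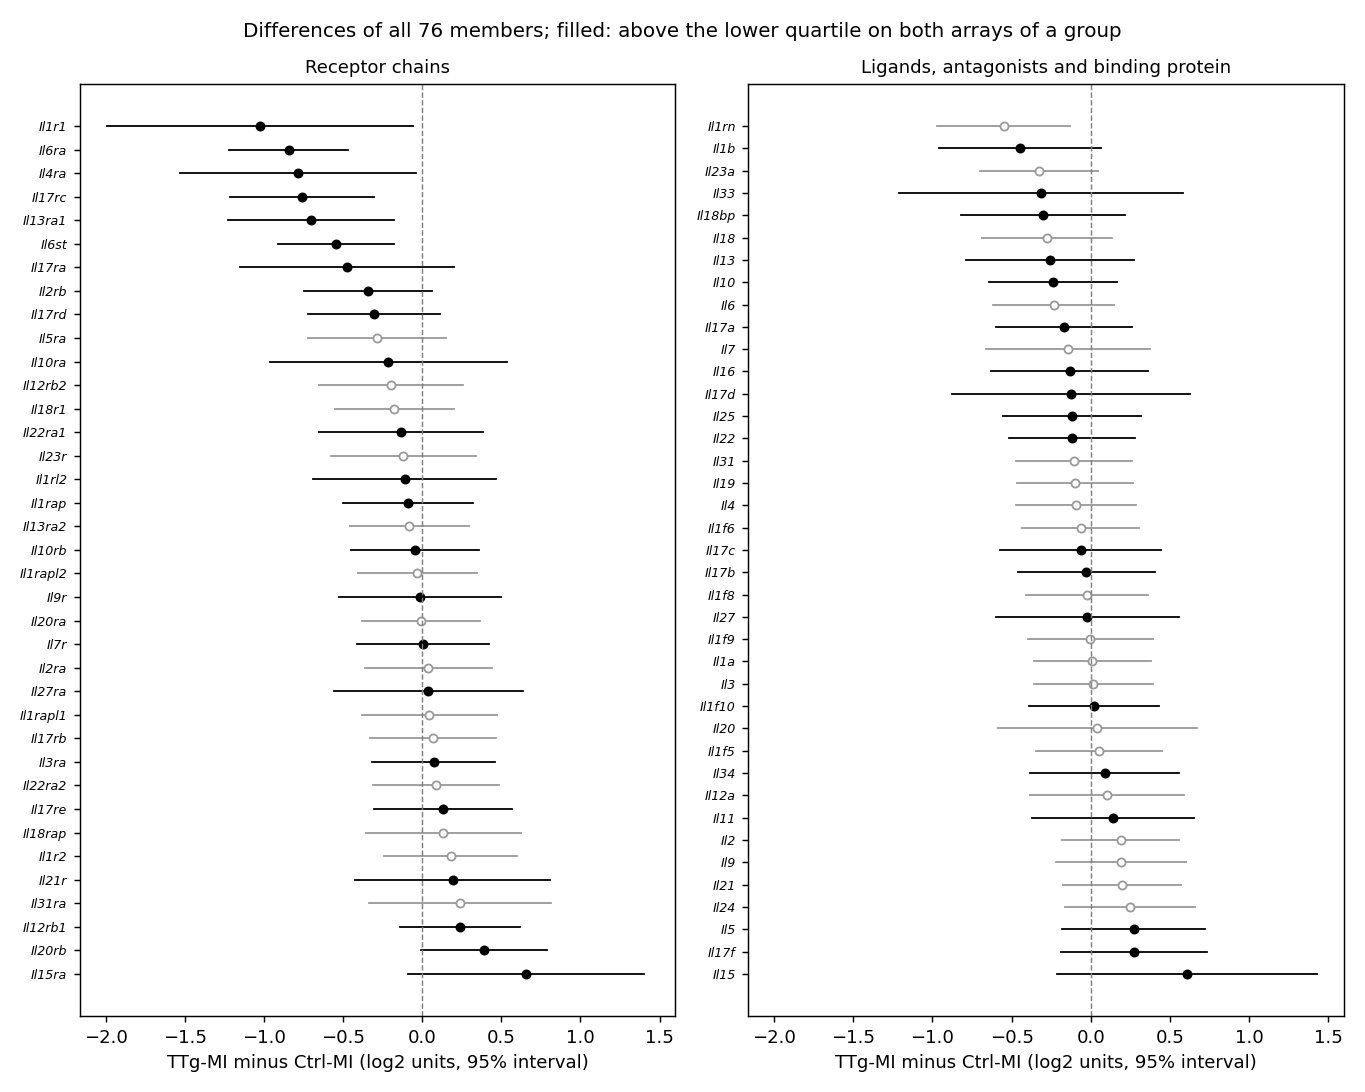
TTg-MI minus Ctrl-MI difference in log2 units (x axis) with its 95% interval from limma for each of the 76 members (y axis), ordered by difference, TTg-MI lower at the top. Filled points are the 42 members above the lower quartile on both arrays of a group. The intervals of Il1r1, Il6ra, Il4ra, Il17rc, Il13ra1, Il6st and Il1rn lie wholly below 0.

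The receptor for IL-6 had the smallest p of the members. Il6ra, the chain that binds IL-6, was at 6.22 and 6.33 in TTg-MI against 7.09 and 7.15 in Ctrl-MI. Il6st, which encodes gp130, the signalling chain shared by IL-6, IL-11, LIF and oncostatin M, was at 13.89 and 13.90 in TTg-MI against 14.42 and 14.46 in Ctrl-MI. For both chains the groups did not overlap, and the 2 arrays within a group lay close together. Il6ra was 1.79-fold lower (log2 difference -0.84, SE 0.15; limma with Benjamini-Hochberg, adjusted p = 0.530), and Il6st was 1.46-fold lower (-0.54, SE 0.15; adjusted p = 0.546). When each array was dropped in turn, the Il6ra difference ran from -0.89 to -0.79 and that of Il6st from -0.56 to -0.52. These 2 ranges were the narrowest of the 6 receptors. Il6ra stayed at an unadjusted p under 0.05 without each array, and Il6st did not without either TTg-MI array.

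The promoter windows of the 4 receptor genes with the smallest p are shown, as the genes that head the comparison. They run from 250 bases before to 50 bases after the gene's start, are RefSeq sequence of build GRCm38.p6 and are written in the direction of the gene. The Il6ra window is chr3:89913147-89913446 on the minus strand, that of Il6st chr13:112463820-112464119, that of Il17rc chr6:113471205-113471504 and that of Il13ra1 chrX:36111858-36112157, the last 3 on the plus strand. Capitals mark the motif matches described next.
Il6ra: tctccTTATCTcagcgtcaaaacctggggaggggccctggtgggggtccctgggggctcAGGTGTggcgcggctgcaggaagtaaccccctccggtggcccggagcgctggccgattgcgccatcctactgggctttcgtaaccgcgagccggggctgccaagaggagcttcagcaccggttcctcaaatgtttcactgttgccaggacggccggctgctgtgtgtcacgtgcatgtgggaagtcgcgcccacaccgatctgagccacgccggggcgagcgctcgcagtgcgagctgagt
Il6st: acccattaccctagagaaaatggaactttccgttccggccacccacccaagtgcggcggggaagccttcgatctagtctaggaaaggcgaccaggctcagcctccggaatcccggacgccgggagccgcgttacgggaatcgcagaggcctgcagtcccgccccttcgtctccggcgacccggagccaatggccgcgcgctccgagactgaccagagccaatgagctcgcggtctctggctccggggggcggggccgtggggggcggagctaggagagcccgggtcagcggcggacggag
Il17rc: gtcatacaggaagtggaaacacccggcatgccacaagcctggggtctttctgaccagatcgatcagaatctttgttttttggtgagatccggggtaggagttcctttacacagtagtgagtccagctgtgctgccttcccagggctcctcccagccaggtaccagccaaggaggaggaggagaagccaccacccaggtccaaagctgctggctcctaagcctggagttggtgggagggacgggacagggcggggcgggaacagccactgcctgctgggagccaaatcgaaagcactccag
Il13ra1: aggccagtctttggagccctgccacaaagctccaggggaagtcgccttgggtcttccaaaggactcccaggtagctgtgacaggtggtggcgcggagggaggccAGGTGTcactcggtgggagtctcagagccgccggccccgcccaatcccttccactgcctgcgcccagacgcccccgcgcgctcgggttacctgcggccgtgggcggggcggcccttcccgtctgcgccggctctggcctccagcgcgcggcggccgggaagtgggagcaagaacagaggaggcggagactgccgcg

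These windows were rich in G and C, at 66.0% for Il6ra, 68.3% for Il6st, 58.7% for Il17rc and 71.0% for Il13ra1, against a median of 52.7% over all 32851 windows. They were searched on both strands for 6 motifs. The letters TTCNNNGAA stood for a STAT site. A T-box site was written as AGGTGT, as bound by factors such as Tbx5. For the zinc-finger GATA factors the letters searched were AGATAA. Hand factors bind E-boxes, for which CATCTG was used here. The consensus sites of MEF2 and of NF-kB completed the search. The Il6ra window held 1 GATA and 1 T-box match, and the Il13ra1 window held 1 T-box match. The windows of Il6st and Il17rc held 0 matches, and no matches overlapped. Of the other 2 receptors, not printed here, the Il1r1 windows held 1 E-box and 1 NF-kB match and the Il4ra window 1 NF-kB match. Of all windows, 13.7% held the T-box letters, 11.2% GATA, 17.2% the E-box, 8.30% the STAT site, 3.19% MEF2 and 8.46% NF-kB. Over the 72 windows found for 59 of the 76 members, the shares were 22.2%, 15.3%, 22.2%, 13.9%, 5.56% and 11.1% in the same order. A match is only a run of letters and says nothing of binding in these hearts.

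The ligands of the gp130 family were dim. Il6, which encodes the acute-phase cytokine IL-6, lay under the lower quartile on all 4 arrays, as did Il31 and the receptor chain Il31ra. Il11, a cytokine gene of stromal cells, was above it, at 5.48 and 5.93 in TTg-MI against 5.48 and 5.65 in Ctrl-MI, with overlapping groups. Il27ra, the binding chain for IL-27, was at 6.63 and 6.17 in TTg-MI against 6.58 and 6.14 in Ctrl-MI, so that replicate 1 was the higher array in both groups. Il27 had 5.55 and 5.58 in TTg-MI within the Ctrl-MI range of 5.29 to 5.89, with Ctrl-MI replicate 2 under the lower quartile.

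Partners of gp130 and of the common chains were described through a list of 17 genes, of which 14 were measured. The list also held Csf1 and its receptor Csf1r, which are not such partners. At an unadjusted p under 0.05, 1 (Csf1r) was lower and 0 were higher, against 5.07% and 3.18% of all probes. Of the 14 means, 11 were lower in TTg-MI. The median log2 difference of the list was -0.18. Csf1r, the receptor for CSF-1 and IL-34 on macrophages, averaged 8.76 ± 0.03 in TTg-MI and 9.71 ± 0.80 in Ctrl-MI (SD, n = 2 each). Osmr, the oncostatin M receptor chain that pairs with gp130, averaged 8.46 ± 0.06 in TTg-MI and 9.20 ± 0.74 in Ctrl-MI. In both genes the spread within Ctrl-MI was nearly as large as the difference. Lifr, the LIF receptor chain that also pairs with gp130, averaged 9.20 ± 0.49 in TTg-MI and 9.20 ± 0.11 in Ctrl-MI. Clcf1, a ligand of the family, was at 5.55 and 5.57 in TTg-MI against 5.93 and 5.83 in Ctrl-MI, below it without overlap. Ebi3, a subunit of IL-27, lay under the lower quartile on both TTg-MI arrays and on 1 Ctrl-MI array. Ctf1, another ligand of the gp130 family, averaged 8.81 ± 0.27 in TTg-MI and 8.84 ± 0.11 in Ctrl-MI. Lifr and Ctf1 were chosen after their values were seen.

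Of the receptors of the IL-17 family, only Il17rc was at an unadjusted p under 0.05. Il17rc, the chain that joins Il17ra in the receptor for IL-17A and IL-17F, was at 7.99 and 7.65 in TTg-MI against 8.65 and 8.51 in Ctrl-MI. The groups did not overlap, and Il17rc was 1.69-fold lower in TTg-MI (log2 difference -0.76, SE 0.18; limma with Benjamini-Hochberg, adjusted p = 0.546). Without single arrays its difference ran from -0.93 to -0.59. Il17ra, the chain common to most receptors of the family, was at 6.32 and 6.39 in TTg-MI against 7.21 and 6.46 in Ctrl-MI. Only Ctrl-MI replicate 1 was high, and the Il17ra difference of -0.47 (SE 0.27) was -0.098 without it.

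Il17rd, an inhibitor of growth factor signalling also known as Sef, was at 5.78 and 5.96 in TTg-MI against 6.28 and 6.07 in Ctrl-MI, below it without overlap. Il17re, the receptor for IL-17C, had 5.79 and 5.70 in TTg-MI and 5.46 and 5.77 in Ctrl-MI, which overlap. For Il17re, Ctrl-MI replicate 1 was just under the lower quartile. Il17rb, the receptor for IL-25, lay under the lower quartile on all 4 arrays.

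All 6 ligands of this family lay above the lower quartile on both arrays of at least 1 group. Il17a, the cytokine of Th17 and gamma delta T cells, was at 6.54 and 6.25 in TTg-MI against 6.62 and 6.51 in Ctrl-MI. Il17d had 7.73 and 7.85 in TTg-MI against 8.35 and 7.48 in Ctrl-MI, a range within Ctrl-MI that enclosed both TTg-MI arrays. Il17c, at 6.53 and 6.95 in TTg-MI against 6.91 and 6.69 in Ctrl-MI, and Il25, at 5.94 and 5.66 in TTg-MI against 5.99 and 5.84 in Ctrl-MI, overlapped as well. TTg-MI lay within the Ctrl-MI range also for Il17b, at 8.78 on both TTg-MI arrays against 8.96 and 8.65 in Ctrl-MI. Il17f, by contrast, was at 5.90 and 5.79 in TTg-MI against 5.75 and 5.39 in Ctrl-MI, where replicate 2 was under the lower quartile. Its difference of 0.27 (SE 0.18) had a 95% interval from -0.19 to 0.73, and the Il17f difference was 0.093 without Ctrl-MI replicate 2.

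The receptor for IL-13, and one for IL-4, is formed by Il4ra and Il13ra1, which signal through STAT6. Il13ra1 was at 10.45 and 9.98 in TTg-MI against 10.99 and 10.84 in Ctrl-MI. Il4ra was at 8.26 and 7.83 in TTg-MI against 9.20 and 8.45 in Ctrl-MI. Both chains lay lower in TTg-MI without overlap, Il13ra1 by 1.63-fold (log2 difference -0.70, SE 0.21) and Il4ra by 1.72-fold (-0.78, SE 0.30), with adjusted p of 0.546 and 0.590 in limma with Benjamini-Hochberg. They differed in how far 1 heart carried the difference: without Ctrl-MI replicate 1 it was -0.62 for Il13ra1 and -0.41 for Il4ra. Without TTg-MI replicate 2 it was -0.46 for Il13ra1.

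Of the ligands, Il13 was at 6.72 and 6.78 in TTg-MI against 7.26 and 6.75 in Ctrl-MI, where only replicate 1 stood higher. Il4 and the decoy receptor gene Il13ra2 lay under the lower quartile on all 4 arrays. Among the related IL-3 and IL-5 genes, Il3ra was at 7.74 and 7.68 in TTg-MI against 7.72 and 7.56 in Ctrl-MI, with a 95% interval of the difference from -0.31 to 0.46. Il5 was at 5.63 and 5.57 in TTg-MI against 5.50 and 5.15 in Ctrl-MI, where Ctrl-MI replicate 2 was under the lower quartile. Il3 and Il5ra were under the lower quartile on all arrays.

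**Figure D3:**
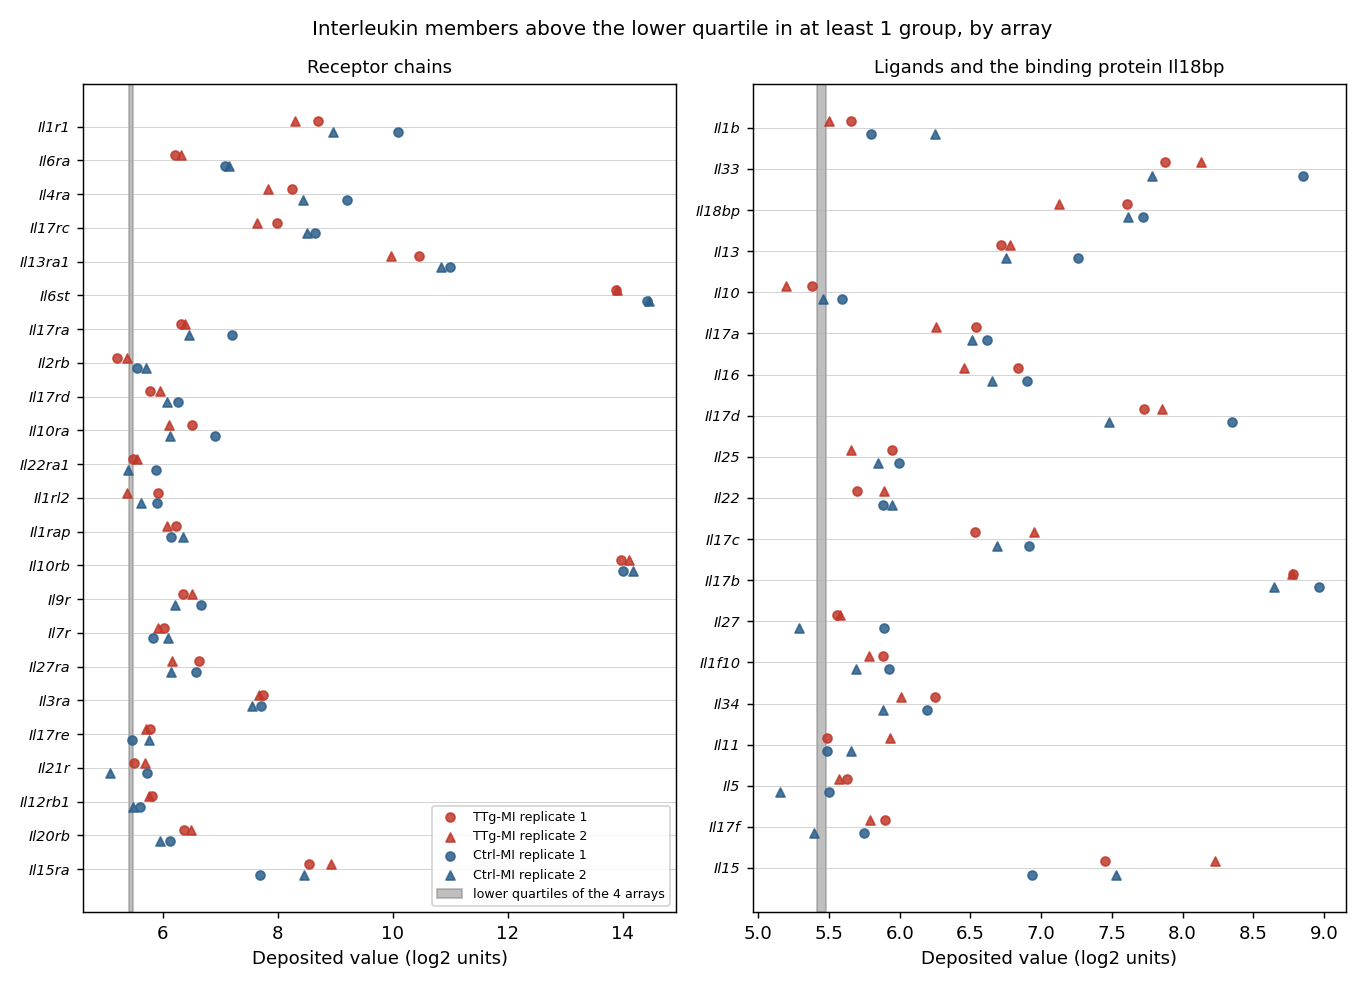
Deposited log2 value (x axis) on each array for the 42 members above the lower quartile on both arrays of at least 1 group (y axis), receptor chains left and ligands with Il18bp right. Red marks are TTg-MI, blue marks Ctrl-MI, circles replicate 1, triangles replicate 2, and the grey band spans the lower quartiles. For Il6ra, Il6st, Il17rc, Il13ra1, Il4ra and Il1r1 both red marks lie left of both blue marks.

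In the IL-1 family, the signalling receptor had the largest difference of any member above the lower quartile, but it rested largely on 1 heart. Il1r1, which binds IL-1 alpha and IL-1 beta, was at 8.71 and 8.30 in TTg-MI against 10.09 and 8.97 in Ctrl-MI. It was 2.03-fold lower in TTg-MI (log2 difference -1.02, SE 0.39; limma with Benjamini-Hochberg, adjusted p = 0.590). Without Ctrl-MI replicate 1 the difference was -0.46, and without Ctrl-MI replicate 2 it was -1.59. Its accessory chain Il1rap was at 6.24 and 6.08 in TTg-MI against 6.15 and 6.35 in Ctrl-MI, with overlapping groups and a 95% interval of the difference from -0.50 to 0.32. The decoy receptor Il1r2 was under the lower quartile on 3 arrays, at 5.43 and 5.71 in TTg-MI against 5.38 and 5.40 in Ctrl-MI.

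Il1b, the main inflammatory ligand of Il1r1, was at 5.66 and 5.50 in TTg-MI against 5.80 and 6.25 in Ctrl-MI, lower without overlap. Its difference was -0.45 (SE 0.21; limma with Benjamini-Hochberg, adjusted p = 0.640) and spanned -0.67 to -0.22 when each array was dropped. Il1a and the antagonist Il1rn were under the lower quartile on all 4 arrays, so no difference is read for them. Il1rn held 4.82 and 4.62 in TTg-MI against 5.17 and 5.37 in Ctrl-MI.

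Il33, an alarmin stored in the nuclei of stromal cells, was at 7.87 and 8.13 in TTg-MI against 8.85 and 7.78 in Ctrl-MI. The TTg-MI values lay between those of the 2 Ctrl-MI hearts. The Il33 difference of -0.31 (SE 0.36) turned to 0.22 without Ctrl-MI replicate 1 and was -0.85 without Ctrl-MI replicate 2. Il18 and its receptor chain Il18r1 lay under the lower quartile on every array. Il18bp, a secreted protein that neutralizes IL-18, was at 7.61 and 7.13 in TTg-MI against 7.72 and 7.62 in Ctrl-MI. The groups did not overlap, TTg-MI replicate 2 was the lowest array, and the Il18bp difference of -0.30 (SE 0.21) was -0.063 without that array.

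Il1f6, Il1f8 and Il1f9, the IL-36 ligands, and Il1f5, their antagonist, were under the lower quartile on all 4 arrays. Il1rl2, which receives them, was at 5.92 and 5.39 in TTg-MI against 5.90 and 5.62 in Ctrl-MI, with overlapping groups. Its value on TTg-MI replicate 2 was under the lower quartile. Il1f10, which encodes IL-38, was at 5.88 and 5.78 in TTg-MI against 5.93 and 5.69 in Ctrl-MI, and Il18rap, the accessory chain of the IL-18 receptor, lay under the lower quartile on 1 array of each group. Il1rapl1 and Il1rapl2, synaptic relatives of the IL-1 receptors, were likewise under the lower quartile on every array.

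IL-15 and its receptor had higher means in TTg-MI. IL-15 supports natural killer and memory T cells and is also made by muscle, and Il15ra presents it to neighbouring cells. Il15ra was at 8.54 and 8.94 in TTg-MI against 7.70 and 8.47 in Ctrl-MI. Il15 was at 7.45 and 8.23 in TTg-MI against 6.94 and 7.53 in Ctrl-MI. TTg-MI replicate 2 was the highest and Ctrl-MI replicate 1 the lowest array for both genes, and the groups overlapped for Il15. Neither passed the test: Il15ra differed by 0.66 (SE 0.30; limma with Benjamini-Hochberg, adjusted p = 0.637) and Il15 by 0.61 (SE 0.33; adjusted p = 0.700). Without Ctrl-MI replicate 1 the differences were 0.27 and 0.31, and without TTg-MI replicate 2 they were 0.46 and 0.22.

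Il2rb, the chain through which IL-15 and IL-2 signal in lymphocytes, was under the lower quartile on both TTg-MI arrays (5.20 and 5.37) and just above it in Ctrl-MI (5.55 and 5.71). The Ctrl-MI mean of Il2rb was 1.11-fold above the lower quartiles of the TTg-MI arrays. Limma gave a 95% interval of the difference from -0.75 to 0.061 and an adjusted p of 0.647. Il7r, the IL-7 receptor of lymphocytes, was at 6.03 and 5.92 in TTg-MI against 5.84 and 6.09 in Ctrl-MI, with a 95% interval of the difference from -0.41 to 0.42. Il2, Il7, Il21 and Il2ra were under the lower quartile on all 4 arrays, and Il9 on 3. Il9r was at 6.36 and 6.51 in TTg-MI against 6.67 and 6.22 in Ctrl-MI, and Il21r at 5.51 and 5.70 in TTg-MI against 5.73 and 5.09 in Ctrl-MI, both with the TTg-MI arrays inside the Ctrl-MI range. The Il21r value on Ctrl-MI replicate 2 was under the lower quartile.

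**Figure D4:**
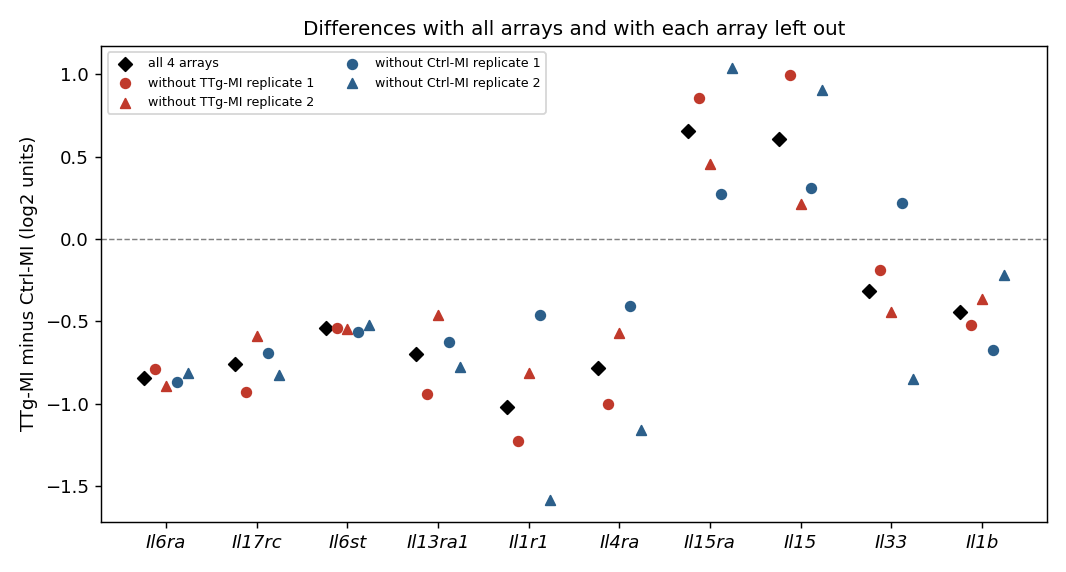
TTg-MI minus Ctrl-MI difference in log2 units (y axis) for 10 members (x axis) with all 4 arrays (black diamonds) and with each array left out (red, a TTg-MI array; blue, a Ctrl-MI array). Il6ra and Il6st stay within -0.89 to -0.52, while Il33 turns to 0.22 without Ctrl-MI replicate 1.

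In the IL-10 family, Il10rb, the shared chain of the IL-10, IL-22 and interferon lambda receptors, was at 13.973 and 14.116 in TTg-MI against 14.003 and 14.179 in Ctrl-MI. Its difference of -0.047 had a 95% interval from -0.45 to 0.36. Il10ra, the binding chain for IL-10 on leukocytes, was at 6.50 and 6.11 in TTg-MI against 6.91 and 6.13 in Ctrl-MI, with a difference of -0.21 that was 0.18 without Ctrl-MI replicate 1. Il10, the anti-inflammatory ligand, was under the lower quartile on both TTg-MI arrays (5.38 and 5.20) and barely above it in Ctrl-MI (5.59 and 5.46).

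Il20rb, a chain of the receptors for IL-19, IL-20 and IL-24, was the higher member with the smallest p. It was at 6.37 and 6.49 in TTg-MI against 6.13 and 5.95 in Ctrl-MI, without overlap. Its difference was 0.39 (SE 0.16; limma with Benjamini-Hochberg, adjusted p = 0.607) and spanned 0.30 to 0.48 when each array was dropped. Il22ra2, a soluble receptor for IL-22, was under the lower quartile on 3 arrays. The other chain of the IL-20 receptor, Il20ra, and the ligands Il19, Il20 and Il24 were under the lower quartile on all 4 arrays. Il22 was at 5.70 and 5.89 in TTg-MI against 5.88 and 5.94 in Ctrl-MI. Il22ra1, its receptor of epithelia, was at 5.49 and 5.55 in TTg-MI against 5.89 and 5.41 in Ctrl-MI, with overlapping groups. Ctrl-MI replicate 2 was just under the lower quartile for Il22ra1.

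Of the IL-12 family, Il12a, Il23a and Il12rb2 were under the lower quartile on all 4 arrays and Il23r on 3. Il12rb1, the chain shared by the IL-12 and IL-23 receptors, was at 5.82 and 5.76 in TTg-MI against 5.61 and 5.49 in Ctrl-MI, above it without overlap (difference 0.24, SE 0.15). Il34 and Il16 belong to no cytokine family named above. Il34, a ligand of Csf1r that maintains microglia and Langerhans cells, was at 6.25 and 6.01 in TTg-MI against 6.20 and 5.88 in Ctrl-MI. Il16, a chemoattractant of CD4+ cells, was at 6.83 and 6.46 in TTg-MI against 6.90 and 6.66 in Ctrl-MI. In both genes the groups overlapped and replicate 1 was the higher array of each group.

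The signalling genes behind these receptors were described through a list of 31 genes, of which 26 were measured. At an unadjusted p under 0.05, 4 were lower and 1 was higher, against 5.07% and 3.18% of all probes, 0 passed limma with Benjamini-Hochberg adjustment, and the median log2 difference was -0.26. Socs2, a feedback inhibitor of JAK signalling, averaged 11.37 ± 0.06 in TTg-MI and 12.15 ± 0.14 in Ctrl-MI (SD, n = 2 each). Stat2, a transcription factor of the interferon response, averaged 7.39 ± 0.08 in TTg-MI and 8.04 ± 0.08 in Ctrl-MI. Irak3, an inhibitor of IL-1 receptor signalling in macrophages, averaged 8.66 ± 0.38 in TTg-MI and 9.59 ± 0.51 in Ctrl-MI, and the kinase gene Jak2 averaged 8.84 ± 0.16 in TTg-MI and 9.27 ± 0.03 in Ctrl-MI. All 4 lay lower in TTg-MI without overlap, with adjusted p of 0.546 to 0.588 in limma.

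Further down the list, Traf6, the ubiquitin ligase downstream of the IL-1 and IL-17 receptors, was the higher gene past that threshold, at 8.12 ± 0.08 in TTg-MI and 7.66 ± 0.23 in Ctrl-MI. Stat6, which carries the IL-4 and IL-13 signal, was at 10.64 and 10.70 in TTg-MI against 11.03 and 11.03 in Ctrl-MI. Stat3, the main factor downstream of gp130, was at 11.70 and 12.49 in TTg-MI against 12.71 and 12.70 in Ctrl-MI. Socs3, a target of STAT3 that dampens gp130 signalling, was at 6.72 ± 0.25 in TTg-MI and 7.15 ± 0.49 in Ctrl-MI, with overlapping arrays. These 4 genes were chosen after their values were seen.

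Inflammasomes are the protein complexes that process IL-1 beta and IL-18. Of the 10 genes of that list, 2 were lower and 1 was higher at an unadjusted p under 0.05, against 5.07% and 3.18% of all probes, 0 passed adjustment in limma, and the median log2 difference was -0.16. Txnip, a thioredoxin-binding protein that can activate NLRP3, averaged 16.11 ± 0.21 in TTg-MI and 17.00 ± 0.32 in Ctrl-MI. The adaptor Pycard was at 6.555 and 6.550 in TTg-MI against 6.002 and 6.250 in Ctrl-MI, higher in TTg-MI without overlap. Casp4, the caspase of the non-canonical inflammasome, averaged 6.95 ± 0.30 in TTg-MI and 7.47 ± 0.16 in Ctrl-MI. Nlrp3, the other gene counted as lower, lay under the lower quartile on all 4 arrays.

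Markers of macrophages and fibroblasts were lower in TTg-MI beside the receptors. Of 8 macrophage markers 7 were measured, and all 7 means were lower in TTg-MI. At an unadjusted p under 0.05, 5 of the 7 were lower, against 5.07% of all probes. The median log2 difference of the 7 was -1.40. Averaged over the list, macrophage markers were at 9.06 and 8.45 in TTg-MI against 10.69 and 9.40 in Ctrl-MI. The 5 measured of 6 fibroblast markers were at 11.74 and 10.85 in TTg-MI against 12.83 and 12.11 in Ctrl-MI. The 6 receptor chains averaged 9.26 and 8.996 in TTg-MI against 10.07 and 9.73 in Ctrl-MI, a direction fixed by their choice from the same comparison. The part of these cell types in the receptor differences was not tested.

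Lymphocyte and granulocyte markers were dim. The T, B and NK cell, dendritic, neutrophil and mast cell lists averaged between 5.19 and 5.83 on every array, near the lower quartiles, and 2 NK cell, 1 dendritic, 1 neutrophil and 1 mast cell marker lay under it on all 4 arrays. The median differences of these 6 lists ran from -0.32 for B cells to 0.14 for mast cells, and 0 of their members passed the unadjusted threshold. Endothelial markers had a median difference of -0.01, with 1 of 6 lower and 1 higher at that threshold. Cardiomyocyte markers had one of 0.19, with 1 of 6 higher. Of all probes, 5.07% were lower and 3.18% higher at that threshold. Ctrl-MI replicate 1 held the highest value of 32 of the 76 members, where it held the highest of 29.6% of all probes.

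**Figure D5:**
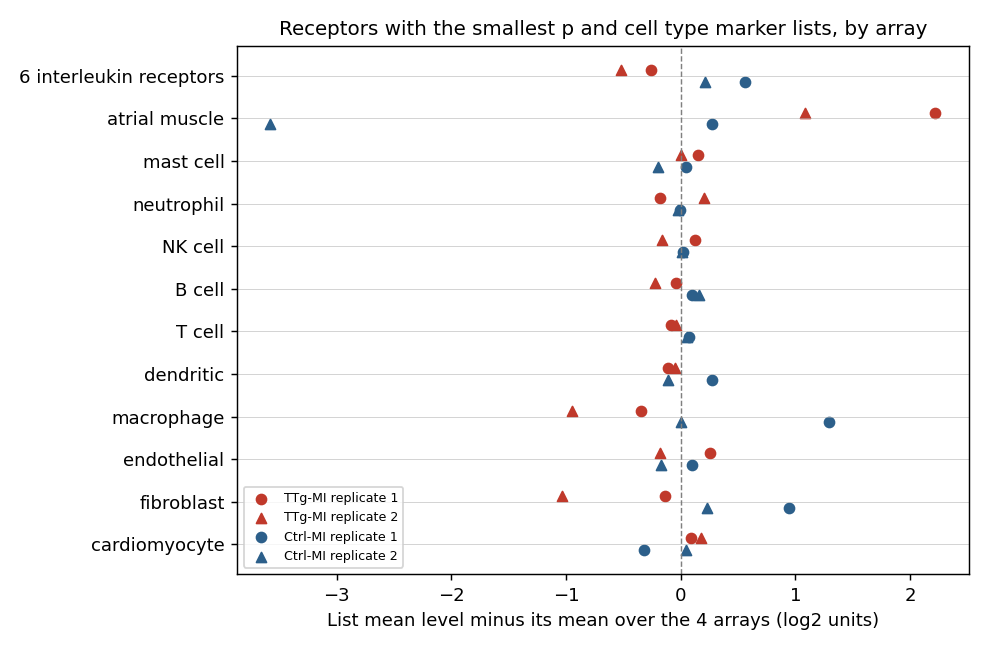
Mean level of each list on an array minus its mean over the 4 arrays, in log2 units (x axis), for the 6 receptor chains at an unadjusted p under 0.05 and 11 marker lists (y axis). Red marks are TTg-MI, blue marks Ctrl-MI, circles replicate 1, triangles replicate 2. Both TTg-MI marks lie left of both Ctrl-MI marks for macrophages, fibroblasts, T cells and B cells, and for the receptors, which were chosen for it. Both lie right of both Ctrl-MI marks for cardiomyocytes and atrial muscle. The Ctrl-MI replicate 2 mark stands far left for atrial muscle.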

How the data were processed

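Expression was measured in 4 hearts, 2 TTg-MI and 2 Ctrl-MI, on Clariom S Mouse arrays. The table deposited by the authors was read as log2 expression, a base inferred from its range of 4.22 to 19.93. Per the submitters' processing notes, Expression Console 1.4 made these values; the sources used here name no summarization method or genome build. The number of arrays limits the precision. The design text calls the hearts independent biological replicates.

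Values were used as deposited. Of 22206 probes, 19572 had 1 gene symbol in the platform annotation while 2634 had none in it. Entrez identifiers changed 0 symbols. All probes were fitted with limma 3.58.1 in R 4.3.3 (lmFit, eBayes, two-sided, 2 residual and 3.56 prior degrees of freedom) with Benjamini-Hochberg adjustment over the table. The test was checked on simulated data. Differences are TTg-MI minus Ctrl-MI.

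The members and lists were chosen with earlier results of these data known. Always named were well-known members, and further those with the smallest p among members above the lower quartile on both arrays of a group (10 ligands or others, 14 receptors), with up to 4 genes per signalling list. Members outside this rule are given to account for all 76. Il1rl1, Il2rg, Il11ra1 and Il4i1 were also planned to be named. No probe carried these symbols in the annotation, so they could not be read. The fit was repeated with median centring, quantile normalization, dim probes removed, a variance prior with trend and robust setting, no moderation, a replicate block, probe averaging and leaving out each array.

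Arrays with the same replicate number deviated together with a correlation of 0.16 across probes, over 2 pairs, and the labels give no shared batch, so the numbers were not taken as pairs.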

Additional observations from a re-analysis of the deposited data

How the results depend on the processing

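Of the 76 members, 0 passed adjustment in limma under each alternative run, a relaxed adjusted threshold of 0.1 included. The receptor median difference stayed below 0 under all of them, and the ligand median, -0.05 with all arrays, was 0.046 without Ctrl-MI replicate 1. The trend prior, no moderation, the replicate block and probe averaging could not change a member's difference, only its p. The members lower at an unadjusted p under 0.05, 7 with all arrays, numbered 3 in an ordinary linear model and 1 to 11 as single arrays were left out, with 1 without TTg-MI replicate 2 and 11 without Ctrl-MI replicate 2, where 7.73% of all probes were lower and 332 probes passed adjustment, against 1 with all arrays. Il6ra was past that threshold under every alternative that kept all 4 arrays. Il6st was too, except under the variance prior with trend and robust setting. The receptors among them, 6 with all arrays, numbered 2 without moderation and 1 to 8 as single arrays were left out. Higher members numbered 0 with all arrays. They numbered 1 with quantile normalization (3.99% of all probes), 1 with median centring (3.19%) and 2 without moderation (2.81%). With the replicate block 2 were higher (Il15 and Il15ra), against 4.58% of all probes, and 7 were lower, against 6.52%. Members without overlap numbered 12 lower and 5 higher when dim probes were left out, which kept 43 members (all probes 20.5% and 19.0%), and 30 to 39 lower and 15 to 27 higher with 1 array fewer (all probes 32.5% to 36.4% and 33.8% to 36.6%). With the array median in place of the lower quartile, 55 members in place of 29 were under it on all arrays.

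The signalling genes higher at that threshold, 1 with all arrays, numbered 0 with median centring, the dim filter, the trend prior or no moderation, and 0 to 3 without single arrays. The genes of the gp130 partner list that were lower, 1 with all arrays (Csf1r), numbered 2 with the trend prior and 3 with the replicate block. The inflammasome genes that were lower, 2 with all arrays, numbered 1 with the dim filter, 0 without moderation and 1 to 4 without single arrays. The higher one numbered 0 with quantile normalization, the dim filter, no moderation and the block, and 0 to 1 without single arrays.

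Of the 31 named members above the lower quartile, 21 kept their direction under every alternative that could change a difference. The Il7r difference turned to -0.010 with quantile normalization. Without single arrays the differences ran from -0.60 to 0.18 for Il10ra, -0.13 to 0.041 for Il10rb, -0.085 to 0.36 for Il11, -0.32 to 0.058 for Il16, -0.024 to 0.28 for Il17re, -0.19 to 0.013 for Il1rap, -0.12 to 0.51 for Il21r, -0.85 to 0.22 for Il33, -0.066 to 0.25 for Il34 and -0.12 to 0.13 for Il7r. The cause of these changes was not tested. Where 1 array is left in a group, its spread is borrowed from the other group. Members under the lower quartile are limited by signal over background.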
